A study of Mus musculus with 7 samples.

Results

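A set of 47 genes and unnamed transcripts, of 36972 on the array, gave a signal well above background in intestinal epithelial cells of 1 mouse taken 10 days after deletion of Mob1a and Mob1b, and on no array of the 6 other mice. The members were chosen from the measured values. Each gene or transcript was represented by its brightest probe, its level was the log2 signal minus the 75th percentile of that array, and it was kept if the scanner software marked it as well above background on the day 10 array alone and its day 10 level was at least 0. Of 1324 names with that pattern of marks, 61 reached the level, and 14 of these were left out by name, among them S100a8, Anxa8, Cxcl1, Saa3, Procr and Il1b. Because the same 7 arrays chose the members, their levels are a description and carry no test.

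The mice had loxP-flanked alleles of both genes, and tamoxifen was given into the peritoneum at 80 mg/kg per day on 2 days at an age of 8 weeks. Controls (2 arrays) were Mob1a f/f; Mob1b f/f mice taken 7 days after tamoxifen. Knockouts had the same floxed alleles, carried Villin-creERT2 in addition and were taken at 4 days (2 arrays), 7 days (2 arrays) or 10 days (1 array). All were males on a C57BL/6J background, and the cells came from the proximal intestine, loosened with 2 mM EDTA. The Villin promoter drives the tamoxifen-activated Cre recombinase in intestinal epithelium, so other cells of the tissue keep both genes. The controls lacked Cre, and the effects of CreERT2 and of the deletion cannot be told apart. The study's design text names days 0, 4 and 7 with 2 mice each and does not mention day 10, and the day 10 values rest on 1 mouse with no replicate.

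Mob1a and Mob1b are adaptor proteins of the Hippo pathway, in which they activate the Lats kinases, and the Lats kinases hold the coactivators YAP and TAZ out of the nucleus. In the intestine this pathway restrains growth and the repair programme that follows injury. The genes described here are not a pathway: they belong to several families, including protease inhibitors, innate immune receptors, matrix proteins, barrier proteins and genes of neuronal membranes and adhesion.

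The gene lists used here were chosen with earlier results of these data known, so counts over them are a description and not an independent test. All 10 epithelial markers on their list were well above background on all 7 arrays. Their summed level on the log2 scale was 10.9 at day 10, against 11.0 in both controls. Among them Epcam, an adhesion molecule of epithelia, was at 5.37 at day 10 and at 5.18 and 5.30 in controls, with a difference that did not pass the test (adjusted p = 0.80, limma). Its difference was positive in the fit used here and negative with median scaling or normexp background correction. Of the 10 markers 1 was higher and 1 lower (2 and 1 in the fit of features marked on at least 2 arrays). Cdh1, the cadherin of epithelial junctions, rose 2.45-fold (adjusted p = 0.013, limma), and Vil1, the villin of microvilli, fell 2.68-fold (adjusted p = 0.012, limma). These calls ended without control replicate 2 for Cdh1 (limma, adjusted p = 0.056) and without control replicate 1 for Vil1 (limma, adjusted p = 0.053). Mob1b was at -2.65 at day 10 and at -0.90 and -1.13 in controls, a fall of 3.11-fold (adjusted p = 0.0081, limma), while Mob1a was at -2.18 at day 10 and at -3.87 and -3.71 in controls, a rise of 3.04-fold (adjusted p = 0.013, limma). The Mob1a rise goes against its deletion, and its call ended with normexp background correction (adjusted p = 0.14, limma) and without control replicate 1 (limma, adjusted p = 0.056). The Mob1a probe was not well above background on control replicate 1 or day 7 replicate 1, so its fold is set partly against a signal near background. Whether the Mob1a and Mob1b probes lie in the deleted exons is not given in the sources used here. The day 10 array was the brightest, with a 75th percentile of 545 signal units against 315 to 395 on the others, and 52.4% of its spots were well above background against 46.3% to 50.8%. The day 7 and day 10 arrays lay in row 2 of the slide and the others in row 1, so slide row cannot be told apart from these differences from control.

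Genes marked on 1 array alone were counted for each array by the marks and level that chose the members. The day 10 array is the only one without a partner of its group, and a gene marked on both arrays of another group leaves these counts. The day 10 array held 1324 names marked on no other array, or 6.20% of the names it marked, against 130 to 381 names, or 0.633% to 1.89%, on each of the other arrays. With a level of at least 0 the count was 61 on the day 10 array, 3 on control replicate 1, 1 on a day 4 array, 1 on a day 7 array and 0 on the others. Genes marked on both arrays of a group and nowhere else numbered 56 in the control group, 38 in the day 4 group and 31 in the day 7 group, and 3 of them, all in the day 7 group, had a mean level of at least 0.

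**Figure D1:**
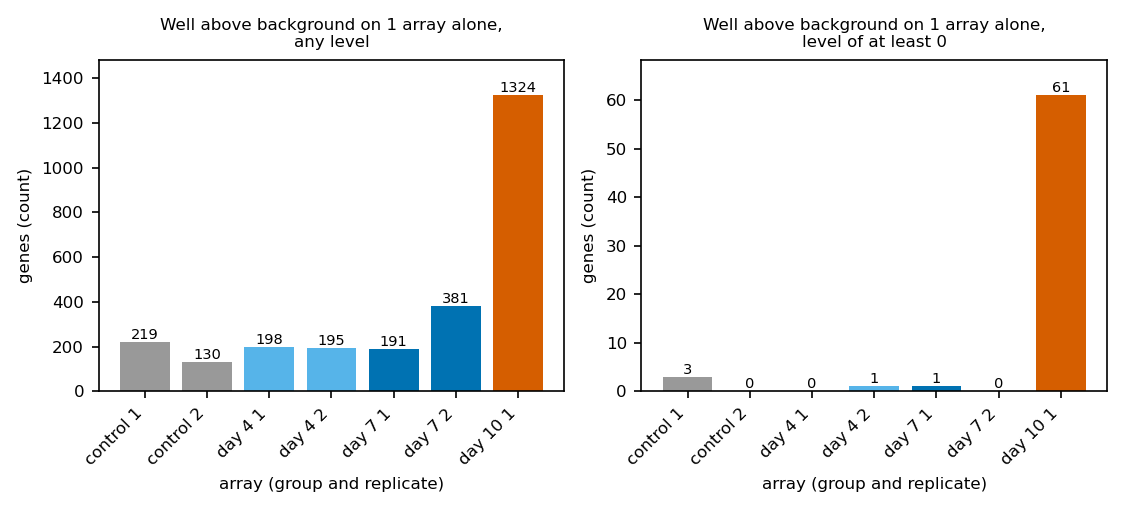
Number of genes well above background on 1 array alone, for each of the 7 arrays in time order, at any level (left) and with a level of at least 0 (right). The day 10 array holds 1324 and 61 such genes, and no other array holds more than 381 and 3.

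Levels of the members on the day 10 array ran between 0.11 and 7.74 with a median of 0.88. They were at 2 or above for 11 members, between 1 and 2 for 11 and below 1 for 25. In signal units the members gave between 590 and 116659 at day 10, with a median of 1003, and no more than 47.8 on any other array. Taking the lowest signal well above background as the limit on the dim arrays, the members were at least 18.2-fold to 5961-fold higher at day 10 than in controls, with a median bound of 51.2-fold. Against the day 7 arrays the bounds ran between 17.9-fold and 4623-fold, with a median of 39.6-fold. These bounds are on the scale of the processed signal. With normexp background correction, an alternative chosen after seeing the data that adds an offset of 50 to every signal and so lowers the folds of dim genes, the members were 5.63-fold to 1298-fold higher, with a median of 10.5-fold. Values below background have no order, so nothing is read from differences among the control, day 4 and day 7 arrays. The members just inside the threshold were Fpr2 at 0.19, Sox17 at 0.12 and Cadm4 at 0.11, and the features just outside it were an unnamed probe at -0.03, Cyp2d9 at -0.06 and Bmper at -0.06.

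**Figure D2:**
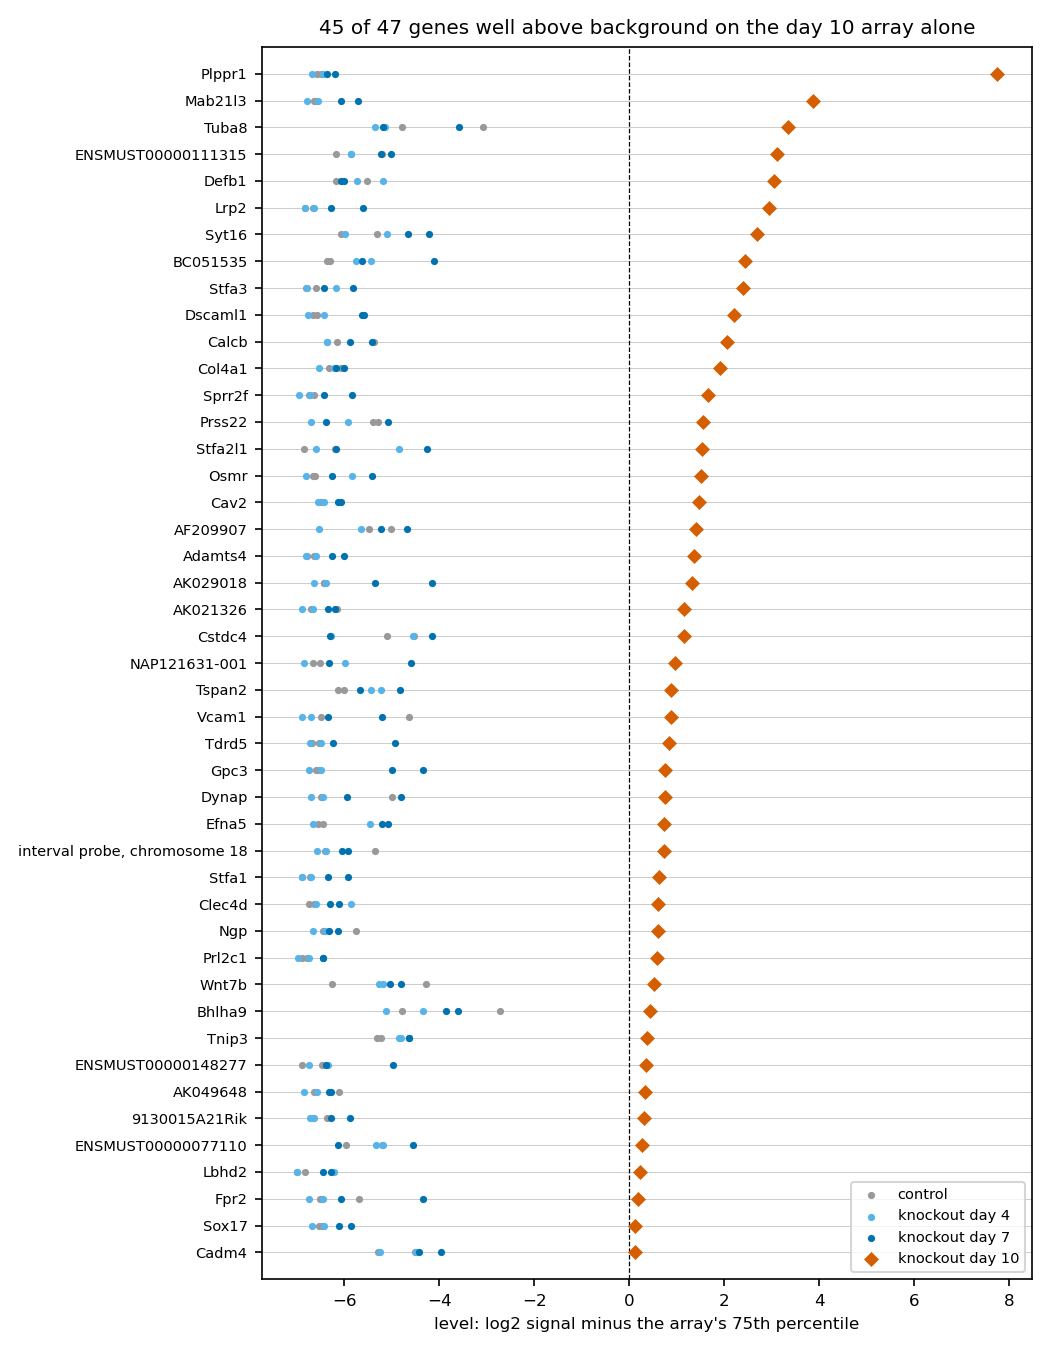
Level of each of 45 of the 47 members (log2 signal minus the array's 75th percentile) on the control, day 4, day 7 and day 10 arrays, 1 point per array, with the dashed line at the threshold of 0. Every day 10 point lies between 0.11 and 7.74, and every other point lies between -7.00 and -2.72.

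A second, looser mark of the scanner software, a signal that is positive and significant, was present for 39 of the 47 members on at least 1 of the other 6 arrays and for 9 members on all 6. It was present for 15 and 20 members on the control arrays, 20 and 21 on the day 4 arrays and 23 and 24 on the day 7 arrays. The 8 members without it on any other array were Plppr1, Adamts4, Stfa1, Prl2c1, Sox17, AK021326, AK049648 and a genomic interval with no gene name.

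Stefin genes were the largest group of related members. Stefins A are small inhibitors inside the cell of cysteine proteases of the cathepsin type, and in the mouse their genes form an expanded cluster on chromosome 16. The members were Stfa1, Stfa2l1, Stfa3 and Cstdc4. In the RefSeq order no protein-coding gene lies between Stfa2l1 and Cstdc4, 2 lie between Cstdc4 and Stfa1, and 5 lie between Stfa1 and Stfa3. Their promoters are printed because these neighbours were detected together, with that of Stfa2, a relative detected on all arrays, for comparison. Each line is the 250 bases before the annotated start in RefSeq's GRCm38.p6, 5′ to 3′ on the gene's strand, and capitals mark a run of 13 bases that all 5 share.
Stfa2l1: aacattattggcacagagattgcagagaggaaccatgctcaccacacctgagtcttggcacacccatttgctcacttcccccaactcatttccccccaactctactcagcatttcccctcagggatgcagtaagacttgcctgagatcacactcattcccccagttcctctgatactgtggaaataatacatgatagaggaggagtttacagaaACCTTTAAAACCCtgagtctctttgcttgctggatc
Cstdc4: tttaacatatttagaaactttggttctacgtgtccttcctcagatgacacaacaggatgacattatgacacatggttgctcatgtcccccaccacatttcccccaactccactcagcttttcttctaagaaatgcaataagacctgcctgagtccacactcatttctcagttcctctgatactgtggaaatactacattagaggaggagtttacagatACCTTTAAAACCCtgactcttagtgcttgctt
Stfa1: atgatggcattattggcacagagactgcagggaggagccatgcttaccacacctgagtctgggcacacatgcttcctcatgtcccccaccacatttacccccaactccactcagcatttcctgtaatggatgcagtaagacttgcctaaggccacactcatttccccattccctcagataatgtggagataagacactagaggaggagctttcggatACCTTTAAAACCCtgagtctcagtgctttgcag
Stfa3: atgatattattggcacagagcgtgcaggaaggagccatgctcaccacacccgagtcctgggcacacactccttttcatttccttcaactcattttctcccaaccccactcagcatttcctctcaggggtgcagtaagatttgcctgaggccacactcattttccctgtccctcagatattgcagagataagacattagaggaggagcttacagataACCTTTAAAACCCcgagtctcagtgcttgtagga
Stfa2: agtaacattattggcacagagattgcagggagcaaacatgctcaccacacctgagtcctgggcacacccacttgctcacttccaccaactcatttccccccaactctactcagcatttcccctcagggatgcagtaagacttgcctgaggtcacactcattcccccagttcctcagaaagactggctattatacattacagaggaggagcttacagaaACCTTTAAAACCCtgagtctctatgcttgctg

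These windows lie at chr16:36156561-36156810 (plus strand) for Stfa2l1, chr16:36183962-36184211 (plus) for Cstdc4, chr16:36276898-36277147 (plus) for Stfa1, chr16:36455393-36455642 (minus) for Stfa3 and chr16:36408364-36408613 (minus) for Stfa2. The shared run starts between 32 and 36 bases upstream of the start, and 8 of 32851 promoter windows in the table hold it (0.0244%), all of them windows of the stefin cluster or of Gm7260. Between the promoters of the 4 members, 75.9% to 86.9% of aligned bases were identical. Stfa2l1 and Stfa2 shared 92.3%, although Stfa2l1 was detected at day 10 alone and Stfa2 on all arrays. The shared run is a description of these letters, and whether any protein binds it was not tested.

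Stfa3 was at -6.80 and -6.60 in controls, -6.79 and -6.18 at day 4, -6.43 and -5.83 at day 7 and 2.40 at day 10, which is at least 147-fold higher at day 10 than in controls. Stfa2l1 was at 1.53 at day 10 (at least 80.8-fold), Cstdc4 at 1.15 (at least 54.9-fold) and Stfa1 at 0.62 (at least 42.7-fold), and none of them exceeded -4.15 elsewhere. Over all 36972 names, 21366 were well above background at day 10, 1324 of them on that array alone. Of the 10 measured genes of this cluster, 8 were well above background at day 10, 5 of them on that array alone. The fifth was Csta1, at -2.58 at day 10, and Cstdc6 and Csta3 were marked nowhere.

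Of the relatives detected on other arrays too, 2 rose at day 10 and 1 did not pass the test. Stfa2 was at 1.87 at day 10 and at -0.70 and -0.81 in controls, a rise of 6.14-fold (adjusted p = 0.0032, limma). Its levels were -1.37 and -1.34 at day 4 and 0.74 and 0.16 at day 7, so the day 10 array was the highest of the 7. Cstdc5 rose to 5.02 at day 10, against -5.50 and -3.27 in controls, of which only control replicate 2 was well above background (adjusted p = 0.0026, limma). Csta2 was at 0.30 at day 10 and at -1.81 and -1.31 in controls (adjusted p = 0.094, limma). It passed with normexp (adjusted p = 0.038, limma), without either day 7 array (limma, 0.040 each) and with only the groups compared (0.0498). These genes are close in sequence, and probe sequences were not used here, so which of them a probe measures is uncertain.

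**Figure D3:**
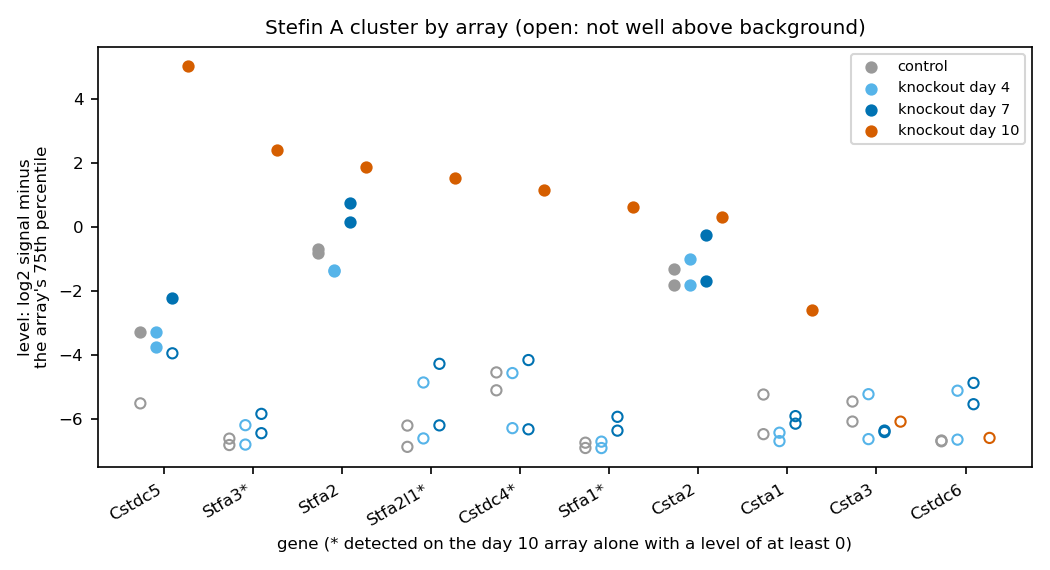
Levels of the 10 measured genes of the stefin A cluster on each array (log2 signal minus the array's 75th percentile), in time order within each gene, with open circles for signals not well above background and asterisks for the 4 members. Levels of different genes come from different probes and are to be compared across arrays only. Stfa3, Stfa2l1, Cstdc4 and Stfa1 have a filled circle at day 10 alone, while Stfa2 and Csta2 have filled circles on all 7 arrays.

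The members with innate immune and inflammatory roles were Osmr, Vcam1, Clec4d, Ngp, Tnip3 and Fpr2, with day 10 levels between 0.19 and 1.50. Osmr encodes the receptor chain for oncostatin M, a cytokine of the IL-6 type, and pairs with the shared chain encoded by Il6st. Osmr was at -6.67 and -6.61 in controls, -6.81 and -5.83 at day 4, -5.43 and -6.27 at day 7 and 1.50 at day 10, at least 78.8-fold higher at day 10 than in controls. Il6st was detected on all arrays, at 1.24 at day 10 and at -0.32 and -0.36 in controls (difference 1.57 ± 0.33 SE, adjusted p = 0.019, limma). It did not pass when either control array was left out (limma, adjusted p = 0.065 without replicate 1 and 0.064 without replicate 2) or with median scaling (0.051). The gene of oncostatin M itself, Osm, lacked the mark on all 7 arrays. Il6 was at -1.12 and marked at day 10 alone, at least 12.8-fold over controls, which like the members carries no test. Among the 7 tested genes of the IL-6 type and colony-stimulating receptors other than Osmr, 4 were higher at day 10 and 1 was lower, where over all 24382 features tested 13.1% were higher and 16.2% were lower. Their median difference was 1.53, against -0.11 over all features. Csf2rb, the shared chain of the receptors for IL-3, IL-5 and GM-CSF, was at 2.29 at day 10 and at -2.06 and -2.30 in controls, a rise of 22.2-fold (adjusted p = 0.0011, limma). Of the 7 tested cytokines of that kind, 2 were higher and 1 was lower (1 and 1 of the 5 marked on at least 2 arrays), and Csf1, the macrophage growth factor, rose 57.6-fold (adjusted p = 6.73e-04, limma). Of 9 tested JAK-STAT3 response genes, 3 were higher and 0 lower, among them the feedback inhibitor Socs3, at 6.55 at day 10 and at 2.80 and 3.02 in controls (12.4-fold, adjusted p = 0.0024, limma). The median difference of the JAK-STAT3 list was 0.74 at day 10 and 0.85 at day 7. Its summed level was 9.75 at day 10, 9.32 to 9.64 at day 7 and 8.59 to 9.21 in controls.

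Vcam1 encodes an adhesion molecule that leukocytes bind through alpha4 integrins. It was at -6.49 and -4.63 in controls, -6.90 and -6.70 at day 4, -5.21 and -6.34 at day 7 and 0.87 at day 10, at least 46.8-fold higher at day 10 than in controls. Icam1, a ligand of the beta2 integrins, was at 0.86 at day 10, at least 50.6-fold over controls (limma, adjusted p = 0.0054), and was also well above background on day 7 replicate 1, at -3.24. Tnip3 encodes an inhibitor of NF-kB signalling of the A20-binding family, and was at 0.37 at day 10, at least 36.0-fold higher than in controls. Its relative Tnip2 was detected on all arrays and rose 3.97-fold (adjusted p = 0.0058, limma).

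Clec4d, Ngp and Fpr2 are typical of neutrophils and other myeloid cells. Clec4d, a lectin receptor for microbial glycolipids, was at 0.60 at day 10 (at least 42.2-fold), Ngp, a granule protein of neutrophils, at 0.60 (at least 42.2-fold), and Fpr2, a receptor for formyl peptides and other chemoattractants, at 0.19 (at least 31.8-fold). None exceeded -4.34 on the other 6 arrays. Their relatives Clec4e (at least 18.2-fold over controls) and Fpr1 (at least 22.9-fold) were also marked at day 10 alone and are given without a test.

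The marker lists hold genes marked at day 10 alone, which passed the filter only through the array where they are high, so counts over genes marked on at least 2 arrays are given beside them. Over all features with such marks 11% were higher and 18.8% lower. Of 23 tested neutrophil markers that were no members, 18 were higher at day 10 and 1 was lower, with a median difference of 2.89, and 13 of the 27 measured markers of that list, the 3 members included, were well above background at day 10 alone and so entered the fit only through that array. Of the 13 neutrophil markers marked on at least 2 arrays, 8 were higher and 1 was lower, with a median of 2.52. Of the 18 higher, S100a8 and Retnlg were kept from the members by their names alone, and Padi4 was the only marker of the list marked nowhere. Over all lists, 92 of 211 tested genes were higher at day 10 and 23 lower, and with a mark required on at least 2 arrays these counts were 70 and 25 of 174. The summed level of the measured neutrophil list was 8.69 at day 10, against 7.18 to 7.55 in controls. Of 18 tested monocyte and macrophage markers, 12 were higher and 0 lower (median 2.60), or 10 and 0 of the 15 marked on at least 2 arrays, and their summed level was 7.29 at day 10, against 5.59 to 5.65 in controls. An example is Chil3, a chitinase-like protein (108-fold, adjusted p = 8.16e-04, limma). T and NK cell markers went the other way, with 1 of 9 tested genes higher and 7 lower and a median difference of -3.85 (0 and 7 of the 8 marked on at least 2 arrays). Cd3g, a chain of the T cell receptor complex, fell 28.9-fold (adjusted p = 5.10e-04, limma), and the summed level of the list was 3.81 at day 10, against 7.61 to 7.78 in controls. In these bulk samples fewer cells of a type and less RNA per cell cannot be told apart, and the part of other cell types in the members' signals was not tested.

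**Figure D4:**
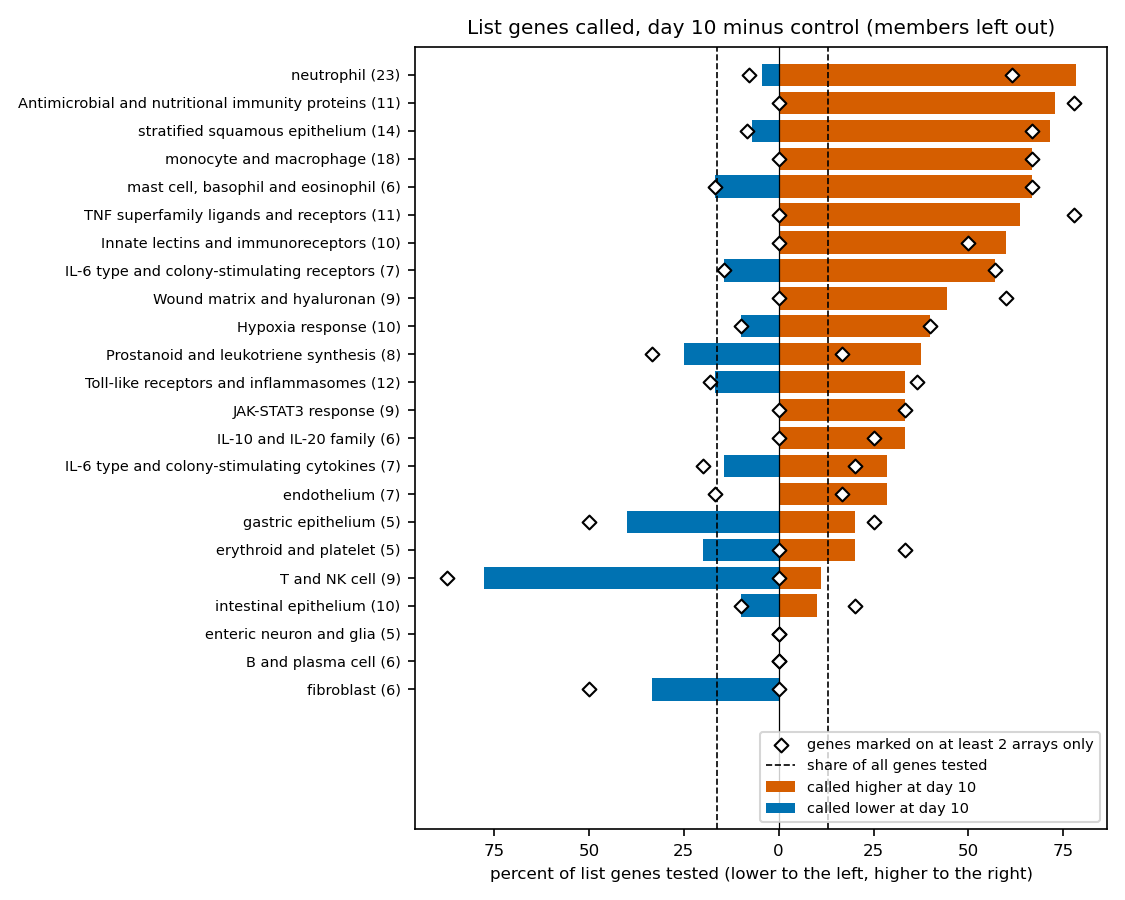
Percent of the tested genes of each list, members left out, that limma called higher (right) or lower (left) at day 10 than in control, with the number of tested genes in brackets, for lists with at least 5. Dashed lines mark the shares over all 24382 features, 13.1% higher and 16.2% lower, and open diamonds give the shares among genes marked on at least 2 arrays. The neutrophil list has 18 of 23 genes higher, or 8 of 13 with marks on at least 2 arrays, and the T and NK cell list has 7 of 9 lower.

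Defb1 and Sprr2f encode barrier proteins of epithelia. Defb1, a beta-defensin that epithelia secrete against microbes, was at 3.05 at day 10 and between -6.19 and -5.19 on the other arrays, at least 231-fold higher than in controls. Sprr2f, a small proline-rich protein of the kind cross-linked into the cornified envelope of skin, was at 1.65 (at least 87.5-fold).

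Of 14 small proline-rich genes measured, 8 were well above background at day 10, 5 of them on that array alone, and 6 were marked nowhere. Of those also marked elsewhere, Sprr1a rose 6.51-fold at day 10 (adjusted p = 0.027, limma). Sprr2a2 was at 8.23 at day 10 and at 7.97 and 7.93 in controls (adjusted p = 0.60, limma). Sprr2b was brighter at day 7 (-2.38 and -1.59) than at day 10 (-2.77). It was called higher than control at both times (limma, adjusted p = 0.024 at day 7 and 0.032 at day 10). Over all 36972 names, 21366 were well above background at day 10, 1324 of them on that array alone. Of 25 measured genes of the stratified squamous epithelium list, 10 were marked nowhere. Among the 14 tested other than Sprr2f, 10 were higher at day 10 and 1 was lower (median 2.60, or 2.27 with dim genes at their bounds). Of the 12 marked on at least 2 arrays, 8 were higher and 1 was lower. Over all features tested 13.1% were higher and 16.2% were lower at day 10. Krt14, a keratin of basal squamous cells, rose 46.4-fold (adjusted p = 4.19e-04, limma) and Ly6d, a surface protein of squamous and lymphoid cells, rose 278-fold (adjusted p = 4.75e-04, limma). Of 11 tested antimicrobial and nutritional immunity genes other than Defb1 and Ngp, 8 were higher and 0 lower (median 2.87), or 7 and 0 of the 9 marked on at least 2 arrays. That list overlaps the myeloid lists: Ltf and Camp are also neutrophil markers, and Lyz2 and Chil3 are also monocyte and macrophage markers. Wfdc2, a secreted protein with protease inhibitor domains, was at 5.99 at day 10 and at -1.22 and -1.78 in controls (179-fold, adjusted p = 7.73e-04, limma).

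Matrix genes and matrix enzymes among the members were Col4a1, Prss22, Adamts4 and Gpc3. Col4a1, a chain of the type IV collagen of basement membranes, was at -6.08 and -6.32 in controls, -6.53 and -6.23 at day 4, -6.01 and -6.18 at day 7 and 1.92 at day 10, at least 105-fold higher at day 10 than in controls. Its partner chain Col4a2 was at 2.29 at day 10, at least 136-fold over controls (limma, adjusted p = 0.0059), and was also well above background on day 7 replicate 2, at -2.76. Of the other 4 type IV chains, Col4a6 was well above background on all 7 arrays, at -2.99 at day 10 and between -2.85 and -2.27 elsewhere. Col4a3 was well above background at day 10 (-4.14), on control replicate 1 and on day 4 replicate 2. Col4a4 was so on control replicate 1 and both day 4 arrays but not at day 10, and Col4a5 nowhere. Prss22, a secreted serine protease, was at 1.54 at day 10 (at least 81.2-fold). Adamts4, a protease that cuts the proteoglycan aggrecan, was at 1.37 (at least 71.8-fold), and Gpc3, a glypican at the cell surface, at 0.75 (at least 47.0-fold). Of 16 measured genes of the wound matrix list, 6 were marked nowhere. Among the 9 tested other than Adamts4, 4 were higher and 0 lower, with a median difference of 0.25. Of the 5 marked on at least 2 arrays, 3 were higher and 0 lower. Thbs1, the matrix protein thrombospondin, was at 1.74 at day 10, at least 93.2-fold over controls (limma, adjusted p = 0.0018). Thbs1 was also called higher at day 7 (adjusted p = 0.0497, limma), a call that ended in 9 of 16 alternatives.

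Fibroblasts and endothelium also make matrix, and their markers are given beside these genes. Of 12 measured fibroblast markers, 6 were marked nowhere. Among the 6 tested, 0 were higher and 2 were lower at day 10 (median -1.26), and 3 were lower in the fit of features marked on at least 2 arrays. Over all features tested 13.1% were higher and 16.2% were lower. The summed level of the fibroblast list was 1.44 at day 10, against 3.89 in both controls. Of 7 tested endothelial markers, 2 were higher and 0 lower (median -0.35). These were Tie1, a receptor tyrosine kinase of endothelium (at least 33.8-fold, adjusted p = 6.21e-04, limma), and Selp, a selectin of endothelium and platelets, which was marked at day 10 alone (at least 5.24-fold). Of the 6 marked on at least 2 arrays, 1 was higher and 1 lower. Cdh5, the cadherin of endothelial junctions, lacked the mark on all 7 arrays.

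The cytoskeletal, endocytic and membrane members were Tuba8, Lrp2, Cav2, Tspan2 and Dynap. Lrp2 encodes megalin, a large endocytic receptor that works in kidney with the cubilin and amnionless complex. Lrp2 was at -6.84 and -6.66 in controls, -6.83 and -6.65 at day 4, -5.61 and -6.28 at day 7 and 2.94 at day 10, at least 214-fold higher at day 10 than in controls. The genes of both partners fell. Cubn, the receptor that takes up vitamin B12 with intrinsic factor in the intestine, was at 0.63 at day 10 and at 5.15 and 5.13 in controls, a fall of 22.9-fold (adjusted p = 0.0047, limma). Amn, which carries cubilin to the membrane, was at 0.75 at day 10 and at 5.09 and 4.95 in controls, a fall of 19.3-fold (adjusted p = 0.0011, limma). On the day 4 and day 7 arrays Cubn stayed between 4.62 and 6.44 and Amn between 4.62 and 5.22.

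Tuba8, an alpha tubulin, was at 3.34 at day 10 and between -5.36 and -3.08 elsewhere, at least 155-fold higher than in controls. Cav2, a coat protein of caveolae, was at 1.47 (at least 77.4-fold), and Cav1, which forms the coat with it, was at -2.08 and marked at day 10 alone (at least 6.60-fold). Cav3, the muscle caveolin, was marked nowhere. Tspan2, a tetraspanin, was at 0.88 at day 10 (at least 51.2-fold) and Dynap, a membrane protein that binds dynactin, at 0.75 (at least 46.8-fold).

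Members grouped here as neuronal membrane and adhesion genes were Plppr1, Syt16, Dscaml1, Calcb and Cadm4. Plppr1 encodes a membrane protein related to phospholipid phosphatases that promotes outgrowths of neurons. It had the highest level of all members, at -6.58 and -6.49 in controls, -6.68 and -6.44 at day 4, -6.37 and -6.19 at day 7 and 7.74 at day 10, or 116659 signal units. The bound is at least 5961-fold over controls, but a second Plppr1 probe for the same transcript accession lacked the mark on all 7 arrays and gave 4.72 signal units at day 10. The 2 probes disagree, so whether Plppr1 was transcribed in the day 10 cells is uncertain.

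Syt16, a relative of the synaptotagmins of vesicle fusion, was at 2.69 at day 10 (at least 180-fold), and Dscaml1, an adhesion molecule of the immunoglobulin superfamily, at 2.20 (at least 128-fold). Calcb, which encodes the neuropeptide CGRP in its beta form, was at 2.06 (at least 116-fold), and Cadm4, a cell adhesion molecule, at 0.11 (at least 26.5-fold). Calca, the gene of the alpha form, was at -4.39 at day 10 and marked nowhere else. Of 8 measured markers of enteric neurons and glia, 3 were marked nowhere. Among the 5 tested, 0 were higher and 0 lower at day 10 (median 0.29), where over all features 13.1% were higher and 16.2% lower. The summed level of the list was -0.36 at day 10, against -0.42 to -0.20 in controls.

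Signalling ligands and transcription factors among the members were Efna5, Wnt7b, Bhlha9 and Sox17, with day 10 levels between 0.12 and 0.73. Efna5, an ephrin ligand, was at 0.73 (at least 46.3-fold). Wnt7b, a Wnt ligand, was at 0.51 (at least 34.3-fold), and its relative Wnt7a was at -1.79 and marked at day 10 alone (at least 8.06-fold). Bhlha9, a transcription factor of limb development, was at 0.43 with the smallest bound of all members, at least 18.2-fold. Sox17, a transcription factor of endoderm and of endothelium, was at 0.12 (at least 30.3-fold).

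The other named members were Mab21l3 at 3.87 (at least 408-fold), Tdrd5 at 0.83 (at least 49.5-fold), Prl2c1 at 0.59 (at least 41.8-fold), the long non-coding RNA 9130015A21Rik at 0.30 (at least 34.3-fold) and Lbhd2 at 0.22 (at least 32.4-fold). Mab21l3 belongs to a family of proteins with roles in development, Tdrd5 is a Tudor domain protein of male germ cells, and Prl2c1 is a relative of prolactin. The 10 members without a gene symbol had day 10 levels between 0.26 and 3.10, with ENSMUST00000111315 the highest and BC051535 next at 2.44. The 37 named members lay on 16 chromosomes, with at most 5 on 1 chromosome. Outside the stefin cluster the closest pair was Mab21l3 and Tspan2 on chromosome 3, with 5 protein-coding genes between them.

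Second probes existed for 10 of the 47 members, 11 probes in all, and their marks were not used to choose the members. At day 10, 10 of these 11 probes were well above background, 9 of them on that array alone. Among all 339 names that were well above background at day 10 alone at any level and had other probes, 109 of 694 other probes (15.7%) were well above background at day 10. These 339 names include dimmer genes than the members, and that difference was not tested. The other probe of Tdrd5 was at 0.16, those of the unnamed interval, which lies on chromosome 18, at 0.56 and 0.94, and that of Sox17 at -0.84. The other probes of Mab21l3 (-1.18), Cav2 (-1.60), Tspan2 (-1.67), Dscaml1 (-2.26) and Vcam1 (-3.06) were dimmer. The other probe of Tnip3, at -1.11 at day 10, was also well above background on day 7 replicate 2, at -1.87, so Tnip3 was not detected at day 10 alone by all of its probes.

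**Figure D5:**
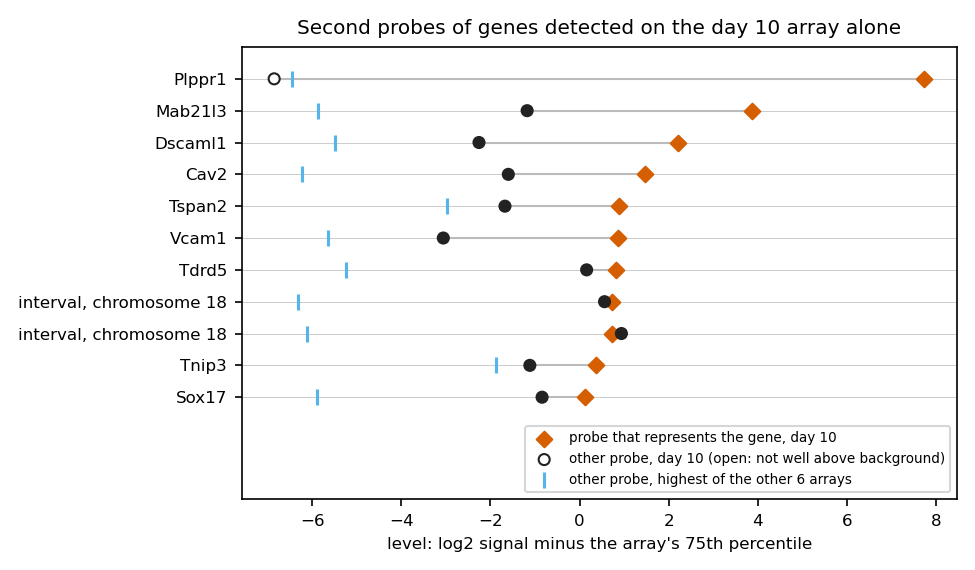
Day 10 level (log2 signal minus the array's 75th percentile) of the probe that represents a member (diamond) and of each other probe of the same member (circle, open where not well above background), with a tick for the highest level of that other probe on the other 6 arrays. Of the 11 other probes, that of Plppr1 alone has an open circle.

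Promoter windows were in the RefSeq table for 25 of the 37 named members, 27 windows in all. Short motifs were searched in the 250 bases before the start, on both strands except for the TATA box, and each match is a description of letters. TATAAA was in 3 of 27 windows (Fpr2, Sprr2f and 9130015A21Rik), against 7.59% of all 32851. The AP-1 motif TGANTCA was in 2 (Cav2 and Sprr2f), against 6.75%, and the C/EBP motif TTGCNNAA in 3 (Cav2, Ngp and Stfa1), against 9.56%. The TEAD motif GGAATG, bound by the partners of YAP and TAZ, was in 2 (Stfa1 and Stfa2l1), against 12.6%. It was also in the window of Stfa2, the relative detected on all arrays. The NF-kB motif and the ETS motif GAGGAAGT were each in 1 window, that of Tnip3, against 0.980% and 2.44%, and the STAT motif TTCCNGGAA was in 1 window, that of 9130015A21Rik, against 0.913%.

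At day 7, the last time with 2 mice, no member was well above background by its representative probe, because the rule that chose the members required this. Over all features limma called 2.42% higher and 3.21% lower at day 7 than in control. Of the 211 tested list genes that were no members, 16 were higher and 8 lower at day 7, and 92 were higher and 23 lower at day 10. Some of the 211, and of the genes of single lists, were marked at day 10 alone, so the filter fixed their lack of a mark at day 7. Of the 174 list genes marked on at least 2 arrays, 18 were higher and 9 lower at day 7. Over all 21744 features with such marks, 711 were higher and 1084 lower at day 7. Of the neutrophil markers, 2 of 23 were higher and 0 lower at day 7, of the monocyte and macrophage markers 1 of 18 was higher and 1 lower, and of the squamous genes 2 of 14 were higher and 0 lower. The wound matrix list had the most, with 3 of 9 higher and 0 lower (median 1.72), and its summed level was 2.54 to 3.70 at day 7, against 0.58 to 0.68 in controls. Among its genes Plaur, the receptor of urokinase, was at 3.53 and 2.17 at day 7 and at -1.67 and -0.42 in controls (14.9-fold, adjusted p = 0.032, limma). This call ended in 7 of 16 alternatives, with adjusted p of up to 0.13 (limma, without control replicate 1). The 24 day 7 calls became 0 without control replicate 1, 3 without control replicate 2, 6 without either day 4 replicate and 12 without day 7 replicate 1. Both comparisons share the 2 control arrays, and the difference between day 7 and day 10 was not tested.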

How the data were processed

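Total RNA was labelled with Cy3 and hybridised to 1-colour Agilent arrays, 7 in all on 1 slide. The intensity values (gProcessedSignal) were deposited as output of the scanner program Feature Extraction, version 11.5.1.1 (array design 028005 and build label mm9, per the file headers). The background marks (gIsWellAboveBG, gIsPosAndSignif), of another kind than intensities, were deposited in the same files per the file headers. The deposited series values equalled gProcessedSignal within 0.1% for 100% of values of probes with 1 spot. Their column medians ran between 15.2 and 30.5, so they are linear and not centred.

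Control spots were left out, leaving 59305 spots and 55681 probes per array, and 91 probes with an outlier spot were left out (55590 used). The files used here hold no gene name column, so probes were named by their accession in RefSeq (table for GRCm38.p6). Of the probes, 27469 had 1 symbol and 28121 kept the file's name, which gave 36972 names, 20863 of them symbols. Levels were log2(gProcessedSignal) minus the 75th percentile of the array, and the brightest probe on average over the 7 arrays stood for a name. Names well above background on at least 1 array (24382) were fitted with limma 3.58.1 in R 4.3.3 as 1 mean per group over all 7 arrays, with 2-sided tests and Benjamini-Hochberg adjustment. A call means an adjusted p below 0.05. Degrees of freedom were 3 residual and 2.58 prior. The spread of the single day 10 array was taken to equal that within the other groups. Replicates were different mice per the design text. They correlated at 0.985 (control), 0.987 (day 4) and 0.973 (day 7) over features, and no value was identical in any of the 21 pairs of arrays. The script was tested on simulated data. A fold written "at least" sets the bright level against the higher of the dim probe's own level and the lowest level well above background on each dim array. A summed level is log2 of the sum of a list's linear levels.

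The members, the 26 gene lists and the gene families were chosen with earlier results of these data known. Named members are those on a list, the 25 brightest with a symbol, those with another probe, related or neighbouring members and those next to the threshold. The others were described so that each member is accounted for, except 2 members that are not reported here one by one, and family relatives were chosen after the members were seen. Named list genes with a test are among those with the smallest p of their list, except Epcam, Il6st, Il6ra and Sprr1a. These, Cdh5, Padi4, Retnlg, Osm, Lifr, Csta3 and Fpr1 were named after their values were seen. Genes marked at day 10 alone are printed without a p. Normexp used gMedianSignal and gBGMedianSignal, because the files used here hold no gMeanSignal. Arrays are few, which limits precision. Same-numbered arrays did not deviate together (correlations of deviations -0.02, 0.06 and 0.19), so numbers do not pair them. Promoters came from RefSeq and were aligned with Biopython 1.88. Tables were read with Python 3.11.15, pandas 2.3.3 and numpy 2.4.6, and with the R package data.table (version 1.17.8).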

Additional observations from a re-analysis of the deposited data

How the results depend on the processing

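The number of members depended on the rule. It was 47 as reported, 8 with the looser mark gIsPosAndSignif required of the day 10 array alone, 22 with a level of at least 1, 92 with at least -1 and 1284 with no threshold. It was 1109 with median scaling and 6 when the 75th percentile was taken over probes detected everywhere, since level 0 then stands for 30.3 or 3744 signal units in place of 545. It was 61 with no name left out. Leaving out 1 array, which can only relax the rule, gave 47 to 58 genes, 58 without day 7 replicate 1. Calls at day 10 numbered 7141, and 4877 to 7592 without 1 array. List genes called at day 10 numbered 115, and 96 to 117 without 1 array. Of the day 10 calls 44.8% were higher, against 55.2% (3880 higher, 3150 lower) with the percentile over probes detected everywhere. Day 7 calls numbered 1373, against 575 with only the groups compared and 148 to 1627 without 1 array (148 without control replicate 1, 395 without control replicate 2, 517 and 518 without a day 4 replicate). Without day 7 replicate 1, 64.0% of them were higher, against 43.0%. List genes called at day 7 numbered 24, against 7 with only the groups compared and 0 to 23 without 1 array. The replicate block, by numbers that do not pair the arrays, gave 6249 calls at day 10 and 1098 at day 7, and 107 and 22 list genes. With normexp, which adds 50 to every signal, the differences from control fell to 4.80 for Col4a2, 4.16 for Thbs1, 3.52 for Icam1 and 3.07 for Tie1, below their bounds. Epcam differed by -0.11 with normexp and -0.045 with median scaling. The causes of the other changes were not tested. The 1 mouse at day 10 and signals near background limit every value here.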
